A study of Mus musculus with 15 samples.

Results

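The axon guidance ligands and receptors were followed in mouse glioma cells and in untransformed neural cells, on 15 Affymetrix mouse arrays in 5 groups of 3. Members were chosen by gene symbol alone. They were the semaphorins (Sema), plexins (Plxn), neuropilins (Nrp1 and Nrp2), A-type and B-type ephrins (Efna, Efnb) and their Eph receptors (Epha, Ephb), numbered netrins (Ntn), Dcc and Unc5a to Unc5d, and the Slit and Robo genes. The rule found 151 probe sets of 68 genes among 18193 genes on the array, and each gene was read from its probe set with the highest mean. Of these, 54 were tested among 11893 genes.

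The side population (SP) of a culture is the fraction of cells that flow cytometry sorts for low retention of a DNA-binding dye, and non-SP cells are the remainder. The tumour groups were 3447 SP, 3447 non-SP and 4346 SP. Both lines came from brain tumours of mice that carry S100beta-verbB, an oncogenic v-erbB transgene under the S100beta promoter, on a p53-/- or p53+/- background, and the labels do not say which background a sample had. Cells of each line, which is 1 tumour, were injected into brains of immunodeficient mice of the strain NOD.Cg-Prkdc<scid>Il2rg<tm1Wjl>/SzJ, and the tumours of 3 such mice per line were cultured again as floating tumorspheres before the sort. The references were neurosphere SP and neurosphere non-SP cells, from untransformed sphere cultures of 3 mice with the same transgene and the same pair of p53 backgrounds, so every group carries the transgene. Another sentence of the design text speaks of mice injected with neurospheres, so the last step before culture is not certain for these samples. Non-SP cells of line 4346 were not analysed here, and ages are not given.

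Guidance molecules steer growing axons and migrating cells by attraction or repulsion. Semaphorins signal through plexins, and most secreted semaphorins also need a neuropilin as coreceptor. Ephrins are held on the cell surface and signal at contacts with cells that carry Eph receptor tyrosine kinases. Netrins attract through Dcc and repel through Unc5 receptors, and Slits repel through Robo receptors. In the brain the same families act on neuroblasts, oligodendrocyte precursors and blood vessels, and several are studied in glioma.

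The sequences of 4 members frame the results, since Unc5c and Sema3d had the highest log2 fold changes in both comparisons of tumour SP with neurosphere SP, and Robo1 and Epha5 the lowest in both comparisons of line 3447. Each run is a RefSeq promoter of assembly GRCm38.p6, 5′ to 3′ on the gene's strand, from 250 bases before to 50 bases after an annotated start. Capitals mark the letters ACAAAG or CTTTGT (a core of SOX binding motifs) and GGGCGG or CCGCCC (the GC box). The windows are chr3:141465314-141465613 for Unc5c, chr5:12382916-12383215 for Sema3d and chr16:72662899-72663198 for Robo1, all on the plus strand, and chr5:84417333-84417632 on the minus strand for Epha5.
Unc5c: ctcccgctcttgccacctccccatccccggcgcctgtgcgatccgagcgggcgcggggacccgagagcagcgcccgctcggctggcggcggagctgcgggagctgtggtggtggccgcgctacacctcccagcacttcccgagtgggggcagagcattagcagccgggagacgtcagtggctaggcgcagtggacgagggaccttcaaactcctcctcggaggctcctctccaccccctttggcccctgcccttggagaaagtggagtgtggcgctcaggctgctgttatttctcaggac
Sema3d: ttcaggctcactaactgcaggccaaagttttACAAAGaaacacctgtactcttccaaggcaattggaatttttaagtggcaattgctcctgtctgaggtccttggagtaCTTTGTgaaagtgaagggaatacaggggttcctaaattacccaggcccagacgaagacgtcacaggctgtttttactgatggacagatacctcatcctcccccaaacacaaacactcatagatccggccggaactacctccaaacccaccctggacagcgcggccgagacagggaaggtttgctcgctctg
Robo1: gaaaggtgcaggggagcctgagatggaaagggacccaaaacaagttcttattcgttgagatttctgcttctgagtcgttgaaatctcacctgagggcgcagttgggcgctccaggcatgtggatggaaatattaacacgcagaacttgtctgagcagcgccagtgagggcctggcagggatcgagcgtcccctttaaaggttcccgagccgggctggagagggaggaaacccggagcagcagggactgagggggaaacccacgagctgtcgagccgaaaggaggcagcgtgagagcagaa
Epha5: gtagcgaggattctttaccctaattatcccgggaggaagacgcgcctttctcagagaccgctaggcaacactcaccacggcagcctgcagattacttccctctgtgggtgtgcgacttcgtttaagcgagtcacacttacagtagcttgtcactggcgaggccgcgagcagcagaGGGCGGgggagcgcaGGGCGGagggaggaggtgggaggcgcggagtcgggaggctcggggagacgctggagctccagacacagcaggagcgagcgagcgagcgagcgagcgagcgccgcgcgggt

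The Sema3d promoter held 2 matches to the SOX core and 8 CpG dinucleotides, and the Epha5 promoter held 2 GC boxes and 30 CpG. The Unc5c window was 68.3% G or C with 24 CpG, and the Robo1 window 57% with 15 CpG, against medians of 52.7% and 7 over 32851 promoters. Neither the Unc5c nor the Robo1 window held a searched motif. The Robo1 and Epha5 windows lie inside the annotated spans of their genes, chr16:72027518-73047491 and chr5:84054761-84417818. Both strands were searched, the printed matches share no base, and the E-box CAGCTG, also searched, was in none of the 4. Over the 74 promoters listed for 58 members, 71.6% held a GC box, against 35.7% of all promoters. The SOX core was in 13.5% of them, against 18.7% of all, and the E-box in 16.2%, against 16.3%. These shares describe letters in a window and say nothing of binding.

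All values below are deposited MAS5 signals, the linear output of the Affymetrix algorithm, which are scaled to a common trimmed mean and cannot be compared between genes. Fold changes are differences of log2(quantile-normalized signal + 16) with their standard error, which understate changes at low signals, and a gene passed at a Benjamini-Hochberg adjusted p under 0.05 in limma over all 11893 genes. Replicates are separate injected mice or donor mice, and p-values measure the spread between these cultures. In sorted bulk cultures, fewer cells of a type and less RNA per cell cannot be told apart. Array medians ran from 40.0 to 89.3, the highest in 3447 SP array 3. In 4346 SP array 3 the actin 3′/5′ signal ratio was 5.30, against 2.49 to 3.29 on the other 14 arrays. The count of all members that passed in each comparison was therefore also made without these 2 arrays. Counts by family, of ligands and receptors, of calls shared between comparisons, of overlapping arrays and of further gene lists were made with all arrays only. A call is said to be lost, or a gene to pass, under another setting where that setting moved its adjusted p across 0.05, and settings that did not are not named.

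The 6 neural stem and progenitor markers summed to between 36164 and 42240 over the 9 tumour arrays, against 47044 to 65312 over the 6 neurosphere arrays. In 3447 SP, 3 of them were lower than in neurosphere SP (Nes at -1.73, Slc1a3 at -1.42 and Msi1 at -1.07 on the log2 scale) and 0 higher, and Sox2, the stem cell factor, had means of 6382 and 6689. The 6 measured oligodendrocyte lineage markers summed to between 19293 and 31601 over the 9 tumour arrays, against 6994 to 12141 over the 6 neurosphere arrays, with Mbp, Sox10, Pdgfra and Cspg4 higher and Olig1 and Olig2 lower in 3447 SP than in neurosphere SP. The 5 astrocyte markers summed to between 376 and 2599 in tumour arrays, against 3428 to 14591 in neurosphere arrays. Much of this sum was Gja1, with means of 7231 in neurosphere SP, 192 in 3447 SP and 1843 in 4346 SP. Gja1, Aqp4 and Aldh1l1 were lower in 3447 SP than in neurosphere SP (-5.80, -2.97 and -2.73 on the log2 scale). Gfap, at 0.41, and Slc1a2, at -1.14, did not pass there or in the other comparisons of tumour with neurosphere. Of host cell markers, 0 of 5 endothelial and 1 of 6 microglial genes passed the filter on low signals, and their sums were at most 200 and 429 in tumour arrays, against 234 and 557 in neurosphere arrays. The pericyte list summed to between 1083 and 5051 in tumour arrays, against 231 to 430 in neurosphere arrays, and the 1 gene of it that passed was Cspg4, which is also on the oligodendrocyte list. The 7 neuronal markers summed to between 3918 and 7150 in tumour arrays, against 4683 to 8347 in neurosphere arrays. Map2 alone had group means of 3534 to 6810. Tubb3 was higher than in the matching neurosphere cells in 3447 SP, 4346 SP and 3447 non-SP (2.78, 2.44 and 2.03 on the log2 scale). Snap25 was lower in 3447 SP and 3447 non-SP (-1.77 and -2.93). These differences in cell type markers move with every comparison of tumour with neurosphere below, and their part in the results was not tested.

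In all 3 comparisons of tumour with neurosphere, a group of ligands and receptors was higher and a smaller group was lower. In 3447 SP, 10 members rose and 8 fell relative to neurosphere SP, which is 33.3% of the 54 tested, against 19.6% of all genes (10.7% higher and 8.92% lower). In 4346 SP, 21 rose and 7 fell, which is 51.9%, against 24.3% of all genes (14.0% higher and 10.3% lower). In 3447 non-SP, 13 rose and 9 fell relative to neurosphere non-SP, which is 40.7%, against 19.4% of all genes (11.2% higher and 8.20% lower). Without the arrays that stand apart, the 3 counts were 15, 20 and 25. The shares of all genes called in that fit are not given here, so these counts do not show a change particular to the members. The median log2 fold change of the members was 0.11, 0.39 and 0.01 in these comparisons, and that of all genes -0.03, 0.02 and 0.04. The median size of the change was 0.83, 1.20 and 1.03 for members, against 0.40, 0.45 and 0.39 for all genes.

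**Figure D1:**
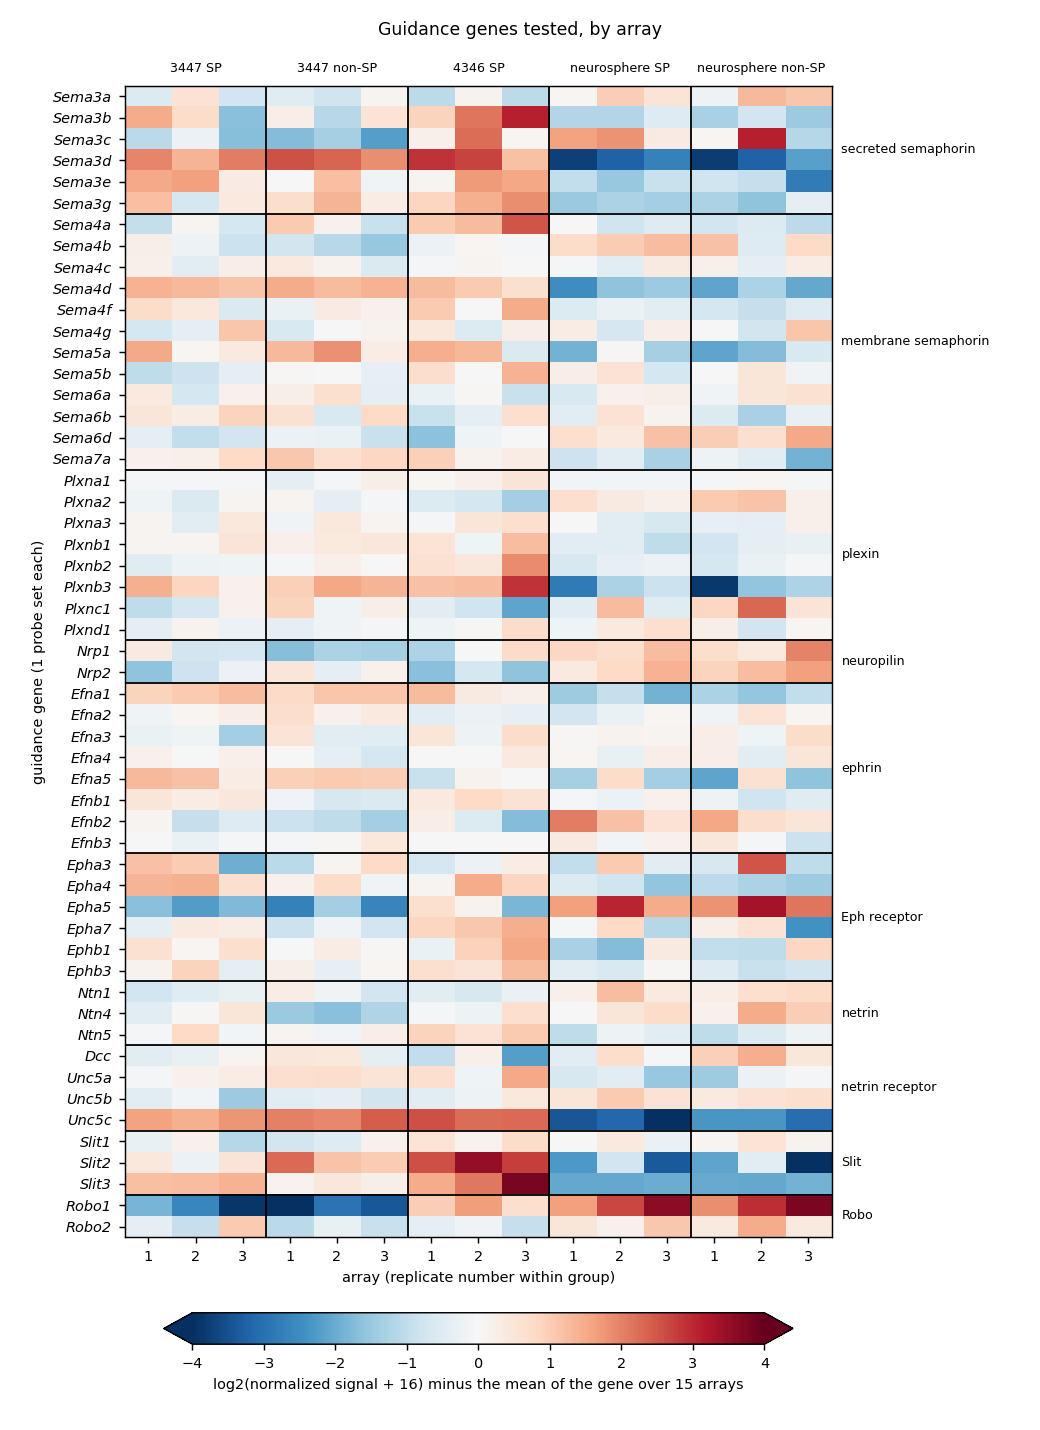
Each row is 1 of the 54 guidance genes tested and each column 1 of the 15 arrays, and colour gives log2(normalized signal + 16) minus the mean of the gene over the arrays. Sema3d, Unc5c and Slit3 are above their means in all 9 tumour arrays and below them in all 6 neurosphere arrays, and Robo1 is low in the 6 arrays of line 3447.

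Among the 32 ligands tested, 7 rose and 4 fell in 3447 SP, 13 rose and 4 fell in 4346 SP, and 10 rose and 4 fell in 3447 non-SP. Among the 22 receptors, 3 rose and 4 fell in 3447 SP, 8 rose and 3 fell in 4346 SP, and 3 rose and 5 fell in 3447 non-SP. The 10 members higher in all 3 comparisons were Sema3d, Sema3e, Sema3g, Sema4d, Sema7a, Plxnb3, Efna1, Epha4, Unc5c and Slit3. The 5 lower in all 3 were Sema4b, Sema6d, Nrp2, Efnb2 and Epha5. No member was called in opposite directions in the 2 lines, and 21 passed in none of the 3 comparisons. The shares of all genes with such joint calls were not counted, so these counts describe the members only. The comparisons with neurosphere SP share those 3 arrays, so their values are given side by side and are not independent.

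The other 14 members (Epha1, Epha2, Epha6, Epha8, Epha10, Ephb4, Ephb6, Ntn3, Plxna4, Robo3, Robo4, Sema3f, Sema6c and Unc5d) were not above the array median in at least 3 arrays, with signals from 0.453 to 84.3, and were not tested. Sema6c had the highest mean among them, 33.9. Among tested members, Ntn5, Sema3b, Sema4a, Sema4f, Sema7a, Slit3 and Unc5a were above the median in no neurosphere array, so they entered the test through tumour arrays, and all 7 are among the 21 called higher in 4346 SP. Unc5b was above it in no tumour array. The counts over tested members are therefore a description of the genes that entered. At the other end, 22 members were above the median in all 15 arrays.

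**Figure D2:**
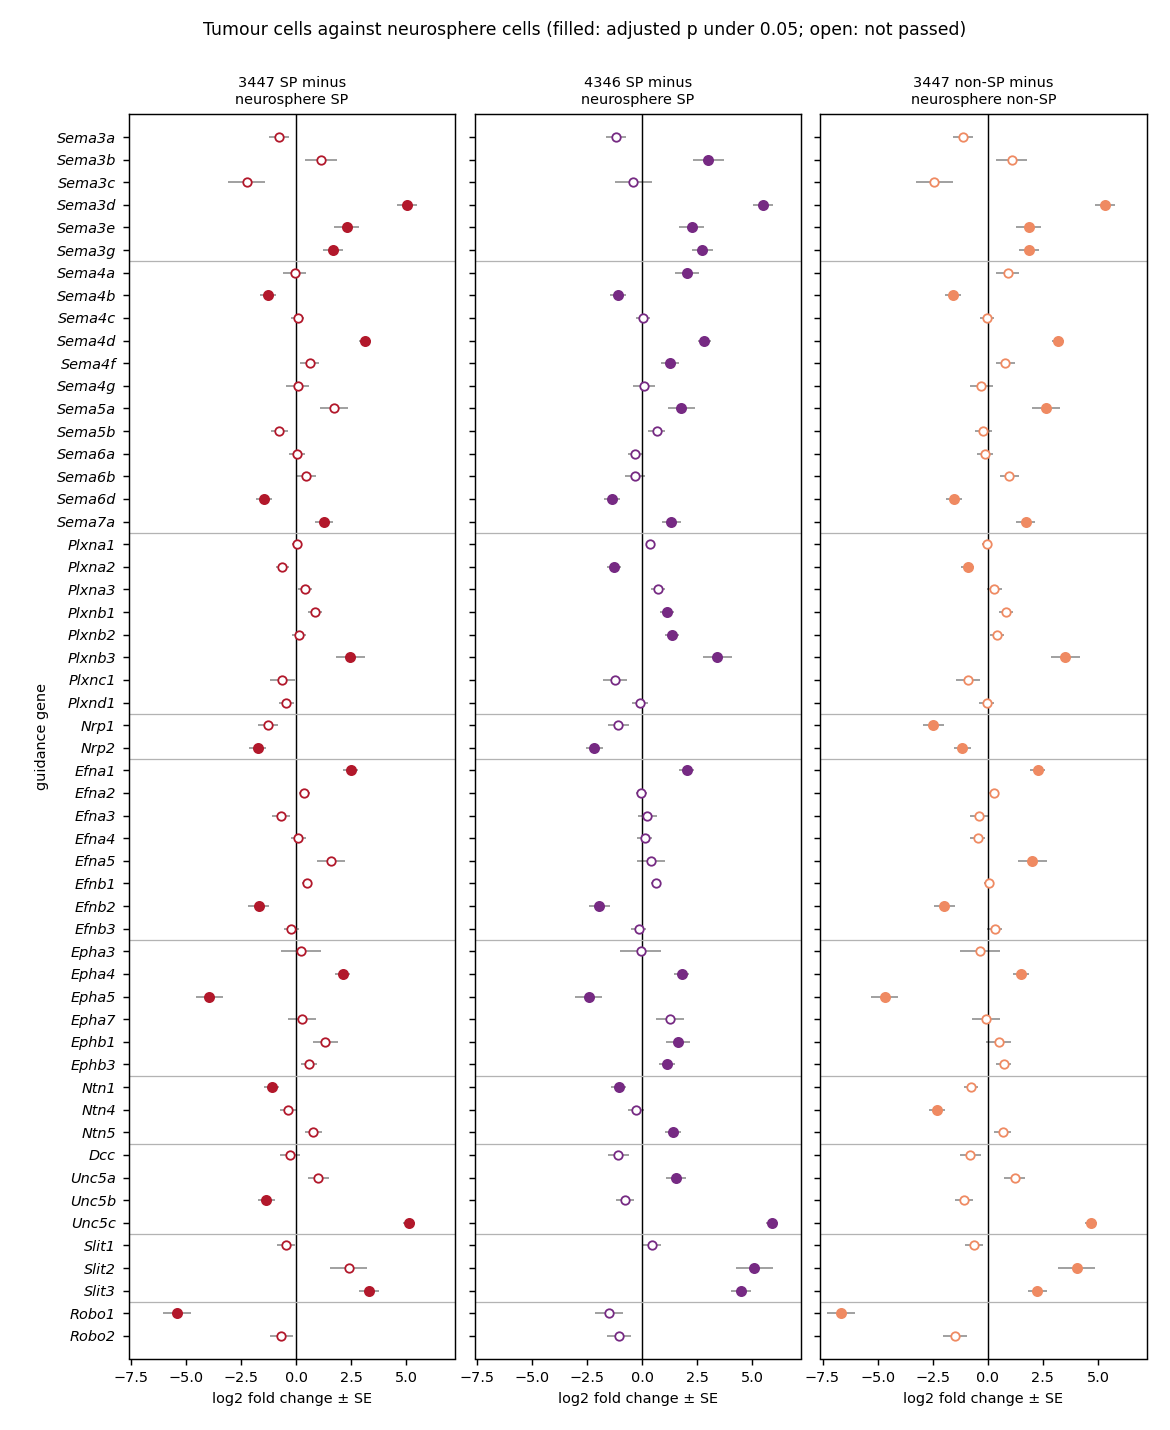
Log2 fold changes with standard errors of the 54 tested guidance genes, for 3447 SP and 4346 SP over neurosphere SP and for 3447 non-SP over neurosphere non-SP, grouped by family, with filled points for adjusted p under 0.05. Unc5c and Sema3d lie above 4.6 in each panel, and Robo1 lies at -5.42, -1.51 and -6.68.

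Secreted semaphorins passed the test only upward, with 3 of 6 tested members higher in 3447 SP, 4 in 4346 SP and 3 in 3447 non-SP. Sema3c gave -2.24 ± 0.84 in 3447 SP and -2.43 ± 0.84 in 3447 non-SP without overlap of arrays, and did not pass (adjusted p = 0.0743 and 0.0545). In 4346 SP it was at -0.40 ± 0.84. The 3447 non-SP fall passed with the replicate block as a random effect (adjusted p = 0.0457), and other settings are not listed for Sema3c. Sema3d, which acts through neuropilins, had 2303, 1549 and 2397 in 3447 SP, 4561, 4000 and 1343 in 4346 SP and 3548, 2997 and 2176 in 3447 non-SP, against 28.4, 46.4 and 78 in neurosphere SP and 25.3, 62.4 and 107 in neurosphere non-SP. Every tumour array was above every neurosphere array, by 5.01 ± 0.46 in 3447 SP, 5.49 ± 0.46 in 4346 SP and 5.32 ± 0.46 in 3447 non-SP on the log2 scale, a 32.2-fold, 45-fold and 39.8-fold change (adjusted p = 1.31e-06, 4.29e-07 and 5.70e-07). A further Sema3d probe set moved the same way, by 3.32, 3.55 and 3.71.

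Sema3e, which signals through plexin-D1 without a neuropilin, had 493, 539 and 219 in 3447 SP, 160, 530 and 487 in 4346 SP and 140, 390 and 140 in 3447 non-SP, against 66.5, 41.8 and 79 in neurosphere SP and 81.3, 92.7 and 6.28 in neurosphere non-SP. The tumour arrays lay above all neurosphere arrays, with log2 fold changes of 2.29 ± 0.57, 2.25 ± 0.57 and 1.85 ± 0.57 in 3447 SP, 4346 SP and 3447 non-SP (adjusted p = 0.00917, 0.00890 and 0.0299). The non-SP call was lost without 3447 non-SP array 2 or neurosphere non-SP array 3 (1.20 to 1.42, adjusted p = 0.136 to 0.141). Plxnd1 itself did not pass, at -0.45 ± 0.35, -0.09 ± 0.35 and -0.05 ± 0.35. Sema3g had 212, 31 and 135 in 3447 SP, 140, 215 and 305 in 4346 SP and 119, 223 and 91.1 in 3447 non-SP, against 17.1, 21.4 and 23 in neurosphere SP and 20.5, 20.5 and 46 in neurosphere non-SP. Its 3447 SP array 2, at 31, was the only tumour array below the highest neurosphere array, at 46 in a non-SP array. The log2 fold changes of Sema3g were 1.67 ± 0.46, 2.74 ± 0.46 and 1.88 ± 0.46 (adjusted p = 0.0182, 4.77e-04 and 0.00912). Its call in 3447 SP was lost without 3447 SP array 1 or 3, neurosphere SP array 1 or the arrays that stand apart (1.22 to 1.63, adjusted p = 0.0508 to 0.0997). That in 3447 non-SP was lost without 3447 non-SP array 2 (1.59, adjusted p = 0.0527).

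Sema3b, a secreted semaphorin described as a tumour suppressor in several human cancers, had 78.5, 221 and 468 in 4346 SP, against 9.85, 8.47 and 27.5 in neurosphere SP. Those groups were apart (3.00 ± 0.71, adjusted p = 0.00592). In line 3447 it had 157, 70.6 and 6.1 in SP and 38.7, 13.4 and 58.9 in non-SP cells, which overlapped the neurosphere values, and did not pass (adjusted p = 0.302 and 0.328). Sema3a, the classical repulsive cue that acts through Nrp1 and A-type plexins, had 296, 642 and 254 in 3447 SP, 186, 454 and 183 in 4346 SP and 276, 238 and 459 in 3447 non-SP, against 421, 820 and 585 in neurosphere SP and 347, 1025 and 915 in neurosphere non-SP. Its log2 fold changes were -0.78 ± 0.46, -1.18 ± 0.46 and -1.12 ± 0.46, the groups overlapped, and none passed (adjusted p = 0.261, 0.0727 and 0.104).

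Membrane-bound semaphorins changed in both directions, with 2 higher and 2 lower of 12 tested in 3447 SP, 5 and 2 in 4346 SP, and 3 and 2 in 3447 non-SP. Sema4d, a transmembrane ligand of B-type plexins, had 3643, 3439 and 2929 in 3447 SP, 3378, 2905 and 2138 in 4346 SP and 3964, 3332 and 3560 in 3447 non-SP, against 219, 434 and 476 in neurosphere SP and 305, 572 and 317 in neurosphere non-SP. All 9 tumour arrays were at 2138 or above and all 6 neurosphere arrays at 572 or below, which gave 3.12 ± 0.28, 2.83 ± 0.28 and 3.18 ± 0.28 (adjusted p = 1.24e-06, 3.22e-06 and 7.90e-07). Its receptor gene Plxnb1 had 356, 347 and 447 in 3447 SP, 458, 260 and 741 in 4346 SP and 342, 418 and 441 in 3447 non-SP, against 215, 220 and 145 in neurosphere SP and 169, 256 and 245 in neurosphere non-SP. Plxnb1 was higher by 1.15 ± 0.32 in 4346 SP (adjusted p = 0.0146), and its 0.87 ± 0.32 in 3447 SP and 0.82 ± 0.32 in 3447 non-SP did not pass (adjusted p = 0.0647 and 0.0810), although no array of the groups compared overlapped. The 4346 SP call was lost without 4346 SP array 3, neurosphere SP array 3 or the arrays that stand apart (0.80 to 0.96, adjusted p = 0.0643 to 0.0697). With the mean of all probe sets or only the groups compared the call was lost as well (0.82 to 1.15, adjusted p = 0.0549 to 0.0846). Plxnb1 did pass in 3447 SP without 4346 SP array 2 or 3 (0.87, adjusted p = 0.0254 to 0.0328). With array weights it passed as well (0.83, adjusted p = 0.0452). In 3447 non-SP it passed without 4346 SP array 2 or 3 or the arrays that stand apart (0.82, adjusted p = 0.0333 to 0.0424). With array weights or only the groups compared it passed as well (0.82 to 0.85, adjusted p = 0.0242 to 0.0386). A further Plxnb1 probe set, also above the filter, gave -0.28 in 3447 SP, 0.49 in 4346 SP and 0.89 in 3447 non-SP.

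Sema7a, a lipid-anchored semaphorin that binds plexin-C1 and integrins, had 86.5, 68.9 and 149 in 3447 SP, 127, 60.7 and 75 in 4346 SP and 138, 115 and 125 in 3447 non-SP, against 28, 41 and 19.2 in neurosphere SP and 50.7, 55.4 and 4.13 in neurosphere non-SP. The tumour arrays were higher than all neurosphere arrays, and it passed by 1.26 ± 0.43, 1.32 ± 0.43 and 1.71 ± 0.43 (adjusted p = 0.0486, 0.0329 and 0.00942). The call in 3447 SP was close to the threshold and was lost without 3447 SP array 1, 2 or 3, 3447 non-SP array 1, 2 or 3, 4346 SP array 1 or 2, neurosphere SP array 1 or 3, neurosphere non-SP array 2 or the arrays that stand apart (1.03 to 1.36, adjusted p = 0.0504 to 0.160). With unnormalized signals, median centring of the arrays, an added constant of 1, no filter on low signals, the mean of all probe sets or only the groups compared the call was lost as well (0.54 to 1.67, adjusted p = 0.0507 to 0.328). The call in 4346 SP was lost without 4346 SP array 1 or 3, neurosphere SP array 1 or 3 or the arrays that stand apart (1.08 to 1.40, adjusted p = 0.0554 to 0.119). With unnormalized signals, an added constant of 1, the mean of all probe sets or only the groups compared the call was lost as well (0.77 to 1.75, adjusted p = 0.0551 to 0.127). That in 3447 non-SP was lost with the mean of all probe sets (0.94, adjusted p = 0.0772). Sema5a, a ligand of plexin-B3, had 401, 130 and 195 in 3447 SP, 366, 327 and 71.6 in 4346 SP and 315, 494 and 160 in 3447 non-SP, against 22, 127 and 44.9 in neurosphere SP and 15.7, 35.4 and 67.5 in neurosphere non-SP. It rose by 2.63 ± 0.62 in 3447 non-SP (adjusted p = 0.00698) and by 1.78 ± 0.62 in 4346 SP, where the groups overlapped (adjusted p = 0.0489), while 1.71 ± 0.62 in 3447 SP did not pass (adjusted p = 0.0660). The 4346 SP call was lost without 3447 SP array 2 or 3, 3447 non-SP array 1 or 2, 4346 SP array 1 or 2, neurosphere SP array 1 or 3 or neurosphere non-SP array 1 or 2 (1.36 to 1.78, adjusted p = 0.0509 to 0.177). With unnormalized signals, an added constant of 1, an added constant of 64, no filter on low signals, the mean of all probe sets, only the groups compared, no trend of spread or the replicate block as a random effect the call was lost as well (1.08 to 2.10, adjusted p = 0.0524 to 0.0977). Sema4a had 51.5, 65.9 and 199 in 4346 SP, against 23, 5.41 and 13.7 in neurosphere SP (2.04 ± 0.53, adjusted p = 0.0110). The highest of those values was in 4346 SP array 3, and the call was lost without 4346 SP array 3 or the arrays that stand apart (1.58, adjusted p = 0.0613 to 0.0631). In line 3447 Sema4a had 4.67, 17.6 and 17.3 in SP and 49.9, 31.5 and 2.57 in non-SP cells and was not called. Sema4f, also a transmembrane semaphorin, had 117, 71.9 and 61.6 in 3447 SP, 120, 44.1 and 173 in 4346 SP and 30.7, 76.5 and 56 in 3447 non-SP, against 31.5, 41.3 and 40.4 in neurosphere SP and 25.8, 28.9 and 28.6 in neurosphere non-SP. It was higher in 4346 SP by 1.26 ± 0.42 (adjusted p = 0.0379), a call lost without 4346 SP array 1 or 3, neurosphere SP array 1, 2 or 3 or the arrays that stand apart (0.94 to 1.34, adjusted p = 0.0639 to 0.156). With unnormalized signals, an added constant of 1, no filter on low signals or only the groups compared the call was lost as well (1.11 to 1.54, adjusted p = 0.0510 to 0.0825). In line 3447 its deposited values were above those of the matching neurosphere cells, with an overlap of the SP groups after normalization. Its 0.61 ± 0.42 in 3447 SP and 0.79 ± 0.42 in 3447 non-SP did not pass (adjusted p = 0.340 and 0.213).

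Lower in the tumour cells were Sema6d and Sema4b. Sema6d, a transmembrane semaphorin that binds plexin-A1, had 2159, 1431 and 1576 in 3447 SP, 879, 2534 and 2762 in 4346 SP and 2393, 2309 and 1495 in 3447 non-SP, against 4505, 3710 and 6451 in neurosphere SP and 5436, 4288 and 8083 in neurosphere non-SP. All neurosphere arrays were above all tumour arrays, and it fell, with log2 fold changes of -1.46 ± 0.36, -1.35 ± 0.36 and -1.53 ± 0.36 (adjusted p = 0.00967, 0.0127 and 0.00703). The 3447 SP call was lost with the mean of all probe sets (-0.72, adjusted p = 0.0712). The 4346 SP call was lost without 4346 SP array 1 or neurosphere SP array 3 (-0.84 to -1.15, adjusted p = 0.0507 to 0.0553). With the mean of all probe sets or only the groups compared the call was lost as well (-0.72 to -1.35, adjusted p = 0.0580 to 0.0604). Plxna1 had 513, 496 and 476 in 3447 SP, 544, 575 and 737 in 4346 SP and 383, 491 and 615 in 3447 non-SP, against 456, 455 and 464 in neurosphere SP and 476, 555 and 478 in neurosphere non-SP, and its log2 fold changes of 0.04 ± 0.21, 0.37 ± 0.21 and -0.04 ± 0.21 did not pass, the first and last changing sign with the scaling. Sema4b had 3333, 2468 and 1503 in 3447 SP, 2439, 3044 and 2703 in 4346 SP and 1726, 1320 and 989 in 3447 non-SP, against 4842, 5827 and 6835 in neurosphere SP and 6352, 1903 and 5016 in neurosphere non-SP. It fell, with log2 fold changes of -1.29 ± 0.36, -1.08 ± 0.36 and -1.60 ± 0.36 (adjusted p = 0.0188, 0.0394 and 0.00477), with 1 low neurosphere non-SP array at 1903 inside the tumour range. Its call in 4346 SP was lost without 4346 SP array 1, 2 or 3, neurosphere SP array 1, 2 or 3 or the arrays that stand apart (-0.95 to -1.20, adjusted p = 0.0536 to 0.113). With median centring of the arrays, no filter on low signals, the mean of all probe sets or no trend of spread the call was lost as well (-0.46 to -1.08, adjusted p = 0.0511 to 0.340). Its call in 3447 SP was lost without 3447 SP array 3, neurosphere SP array 3 or the arrays that stand apart (adjusted p = 0.0646 to 0.102). The call in 3447 non-SP was lost with the mean of all probe sets (-0.96, adjusted p = 0.0534).

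**Figure D3:**
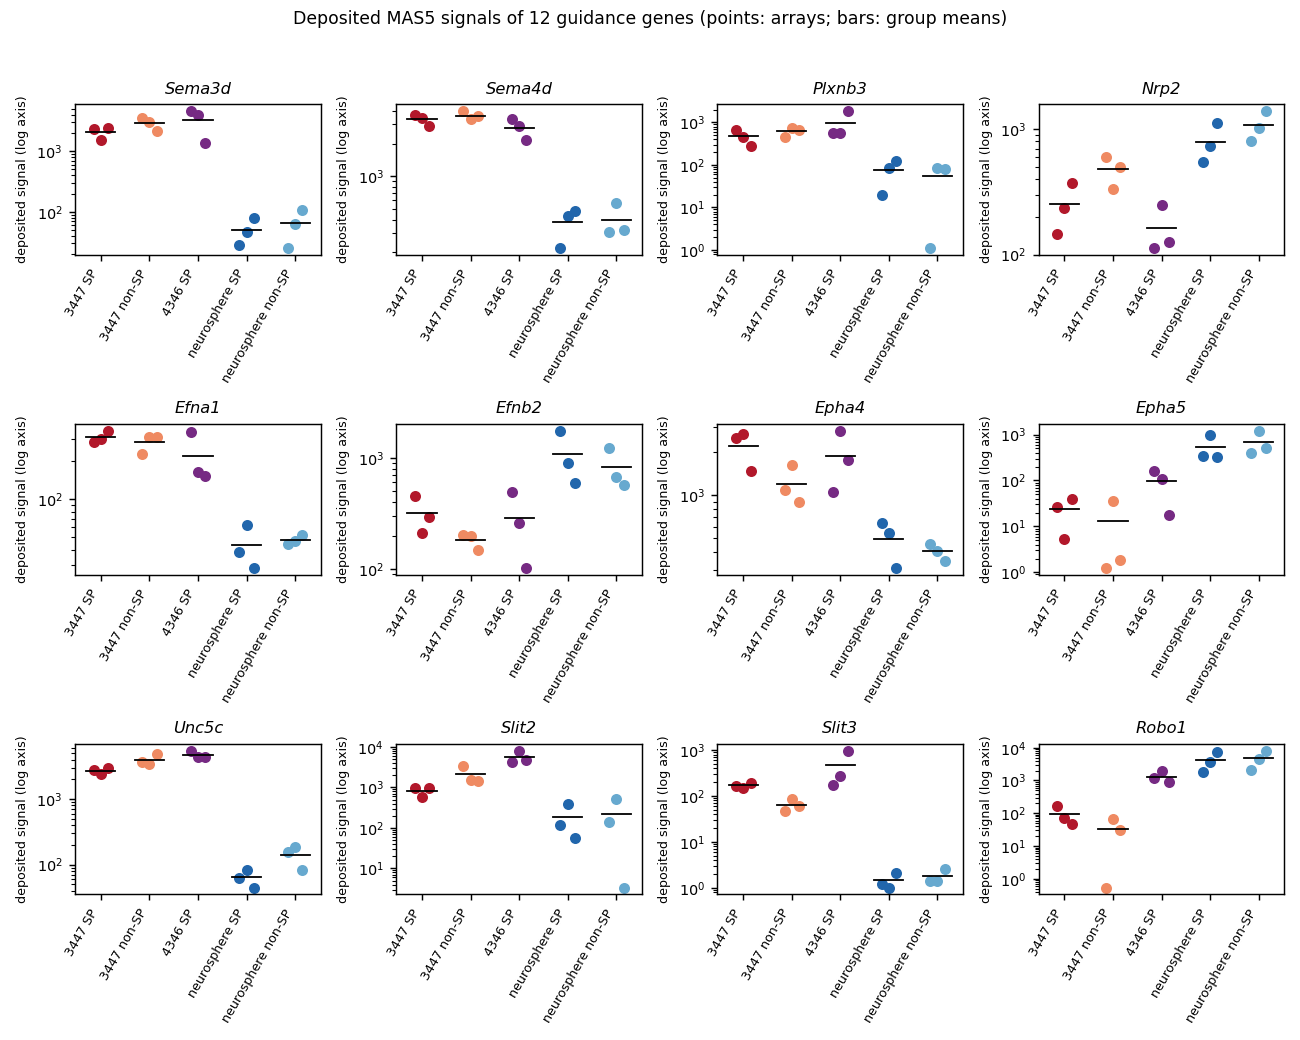
Deposited MAS5 signals on log axes of 12 guidance genes in the 5 groups, with 1 point per array and a bar at the group mean. Sema3d, Sema4d, Unc5c and Slit3 have every tumour array above every neurosphere array. Robo1 in 4346 SP lies at 916 to 1884, above line 3447, and its highest array overlaps neurosphere SP.

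Of the 8 plexins tested, Plxnb3 passed in every comparison of tumour with neurosphere. This receptor of Sema5a had 676, 453 and 283 in 3447 SP, 550, 571 and 1825 in 4346 SP and 463, 727 and 645 in 3447 non-SP, against 19.8, 87 and 123 in neurosphere SP and 1.12, 85.8 and 80.6 in neurosphere non-SP. All tumour arrays were higher, by 2.46 ± 0.65, 3.41 ± 0.65 and 3.51 ± 0.65 (adjusted p = 0.0133, 0.00117 and 0.00105), with the highest value in 4346 SP array 3. The call in 3447 SP was lost without 3447 SP array 1 or neurosphere SP array 1 (1.87 to 2.15, adjusted p = 0.0619 to 0.0741). With an added constant of 1 the call was lost as well (2.80, adjusted p = 0.0724). Plxna2, which binds class 3 and class 6 semaphorins, had 486, 360 and 570 in 3447 SP, 360, 314 and 188 in 4346 SP and 563, 412 and 511 in 3447 non-SP, against 842, 661 and 598 in neurosphere SP and 1137, 1176 and 608 in neurosphere non-SP. It fell by 1.28 ± 0.31 in 4346 SP and by 0.92 ± 0.31 in 3447 non-SP (adjusted p = 0.00641 and 0.0455), and -0.63 ± 0.31 in 3447 SP did not pass (adjusted p = 0.171). The 3447 non-SP call was lost without 3447 SP array 1, 3447 non-SP array 1, 2 or 3, 4346 SP array 2, neurosphere SP array 2 or neurosphere non-SP array 1 or 2 (-0.75 to -1.03, adjusted p = 0.0511 to 0.162). With median centring of the arrays, no filter on low signals, the mean of all probe sets or only the groups compared the call was lost as well (-0.72 to -0.92, adjusted p = 0.0549 to 0.184). Plxnb2 had 698, 620 and 1708 in 4346 SP, against 277, 357 and 379 in neurosphere SP (1.37 ± 0.32, adjusted p = 0.00564). This call was lost with only the groups compared (1.37, adjusted p = 0.0513). In line 3447 its values of 338 to 537 gave no call.

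Both neuropilins were lower in tumour cells where they passed. Nrp2 had 145, 237 and 373 in 3447 SP, 113, 247 and 125 in 4346 SP and 602, 333 and 500 in 3447 non-SP, against 544, 730 and 1120 in neurosphere SP and 806, 1025 and 1394 in neurosphere non-SP. It fell, with log2 fold changes of -1.74 ± 0.39, -2.17 ± 0.39 and -1.16 ± 0.39 (adjusted p = 0.00450, 7.12e-04 and 0.0465), and within each comparison no array overlapped. The 3447 non-SP call was lost without 3447 SP array 2, 3447 non-SP array 1, 2 or 3, neurosphere SP array 2 or neurosphere non-SP array 1, 2 or 3 (-0.92 to -1.36, adjusted p = 0.0503 to 0.178). With median centring of the arrays, an added constant of 1, no filter on low signals, the mean of all probe sets, no trend of spread or array weights the call was lost as well (-0.69 to -1.19, adjusted p = 0.0551 to 0.116). Nrp1, which is also a coreceptor for vascular growth factors, had 979, 464 and 451 in 3447 SP, 305, 741 and 1279 in 4346 SP and 205, 309 and 293 in 3447 non-SP, against 1343, 1211 and 1747 in neurosphere SP and 1263, 986 and 3032 in neurosphere non-SP. The fall of 2.47 ± 0.47 in 3447 non-SP passed (adjusted p = 0.00131), and -1.28 ± 0.47 in 3447 SP and -1.08 ± 0.47 in 4346 SP did not (adjusted p = 0.0675 and 0.107). Nrp1 did pass in 3447 SP without 3447 SP array 1, 4346 SP array 1 or 3 or neurosphere non-SP array 3 (-1.28 to -1.63, adjusted p = 0.0335 to 0.0412). With only the groups compared or median centring of the arrays it passed as well (-1.28 to -1.44, adjusted p = 0.0203 to 0.0427). In 4346 SP it passed without 4346 SP array 3 or the arrays that stand apart (-1.54, adjusted p = 0.0311 to 0.0373). With array weights it passed as well (-1.61, adjusted p = 0.0121).

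Ephrins split by gene, with 1 higher and 1 lower of 8 tested in each comparison of SP cells, and 2 higher and 1 lower in 3447 non-SP. Efna1, a lipid-anchored ligand of EphA receptors, had 283, 302 and 348 in 3447 SP, 342, 165 and 152 in 4346 SP and 227, 313 and 314 in 3447 non-SP, against 38.5, 62.2 and 28.7 in neurosphere SP and 44.4, 46.7 and 52.3 in neurosphere non-SP. The lowest tumour array was at 152 and the highest neurosphere array at 62.2, and the rise of 2.47 ± 0.33, 2.02 ± 0.33 and 2.26 ± 0.33 passed in every alternative run (adjusted p = 5.21e-05, 3.17e-04 and 1.22e-04). Efnb2, a transmembrane ligand of EphB receptors and EphA4, had 454, 209 and 291 in 3447 SP, 490, 262 and 103 in 4346 SP and 202, 199 and 150 in 3447 non-SP, against 1736, 906 and 595 in neurosphere SP and 1233, 666 and 564 in neurosphere non-SP. All neurosphere arrays were above all tumour arrays, and it fell, with log2 fold changes of -1.71 ± 0.47, -1.94 ± 0.47 and -1.98 ± 0.47 (adjusted p = 0.0179, 0.00704 and 0.00719). The call in 3447 SP was lost without 3447 SP array 2 or 3 or neurosphere SP array 1 (-1.31 to -1.67, adjusted p = 0.0572 to 0.0947). With the mean of all probe sets the call was lost as well (-0.99, adjusted p = 0.0569). Efna5 was the second ephrin higher in 3447 non-SP, by 2.02 ± 0.64 (adjusted p = 0.0348), and its neurosphere values were uneven, with 148 and 160 in arrays 2 of SP and non-SP and 6.8 to 27.1 in the others. That call was lost without 3447 non-SP array 1, 2 or 3 or neurosphere non-SP array 1 or 3 (1.48 to 2.05, adjusted p = 0.0817 to 0.161). With no filter on low signals, the mean of all probe sets or no trend of spread the call was lost as well (1.05 to 2.02, adjusted p = 0.0506 to 0.0609).

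Only 6 of the 13 Eph receptor genes entered the test, and Epha4 and Epha5 moved in opposite directions in all 3 comparisons. Epha4, which binds both ephrin classes, had 2503, 2668 and 1463 in 3447 SP, 1057, 2795 and 1752 in 4346 SP and 1080, 1625 and 891 in 3447 non-SP, against 637, 541 and 311 in neurosphere SP and 459, 410 and 344 in neurosphere non-SP. No tumour array was as low as any neurosphere array, and the rise was 2.10 ± 0.36, 1.79 ± 0.36 and 1.50 ± 0.36 (adjusted p = 6.16e-04, 0.00195 and 0.00773). Epha5, a neural receptor of A-type ephrins, had 26.8, 5.23 and 39.1 in 3447 SP, 164, 107 and 17.9 in 4346 SP and 1.26, 35.5 and 1.86 in 3447 non-SP, against 347, 966 and 317 in neurosphere SP and 404, 1191 and 521 in neurosphere non-SP. The 6 arrays of line 3447 were at 39.1 or below and all neurosphere arrays at 317 or above. It fell by 3.95 ± 0.61 in 3447 SP, 2.41 ± 0.61 in 4346 SP and 4.67 ± 0.61 in 3447 non-SP (adjusted p = 2.10e-04, 0.00866 and 4.32e-05), and 3 further Epha5 probe sets were lower too, at -1.69 to -4.31. Without the arrays that stand apart the 4346 SP call was lost (-1.67, adjusted p = 0.0545). Ephb1 and Ephb3, receptors of B-type ephrins, were higher in 4346 SP by 1.63 ± 0.56 and 1.14 ± 0.36 (adjusted p = 0.0453 and 0.0302). The Ephb1 call was lost without 3447 SP array 1, 2 or 3, 3447 non-SP array 1, 2 or 3, 4346 SP array 2 or 3, neurosphere SP array 1 or 2 or the arrays that stand apart (1.21 to 1.63, adjusted p = 0.0534 to 0.199). With no filter on low signals, only the groups compared, no trend of spread or array weights the call was lost as well (1.15 to 1.63, adjusted p = 0.0662 to 0.114). The Ephb3 call was lost without 4346 SP array 3, neurosphere SP array 1 or 2 or the arrays that stand apart (0.91 to 1.09, adjusted p = 0.0798 to 0.118). With no filter on low signals or only the groups compared the call was lost as well (1.14, adjusted p = 0.0520 to 0.0623). Epha2 was among the genes not tested.

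The netrin receptor Unc5c, which mediates repulsion from netrins, had the smallest p-values of all members. Its signals were 2724, 2425 and 2930 in 3447 SP, 5424, 4343 and 4306 in 4346 SP and 3668, 3380 and 4783 in 3447 non-SP, against 63.1, 83.3 and 44.8 in neurosphere SP and 157, 183 and 83.1 in neurosphere non-SP. The lowest tumour array, 2425, was far above the highest neurosphere array, 183. The rise of 5.12 ± 0.27, 5.89 ± 0.27 and 4.69 ± 0.27 was 34.7-fold in 3447 SP, 59.1-fold in 4346 SP and 25.9-fold in 3447 non-SP (adjusted p = 2.54e-09, 3.57e-10 and 5.04e-09). A further Unc5c probe set was higher by 3.10, 3.15 and 3.53. The gene lies at chr3:141465564-141834924 in GRCm38.p6.

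The other netrin receptors gave smaller differences. Unc5b had 26.1, 21.4 and 7.72 in 3447 SP, 14.1, 18.8 and 47 in 4346 SP and 13.5, 26.1 and 7.94 in 3447 non-SP, against 49.9, 84.6 and 61 in neurosphere SP and 47.6, 74.7 and 53.9 in neurosphere non-SP. It fell by 1.35 ± 0.40 in 3447 SP (adjusted p = 0.0257). This was lost without 3447 SP array 3, neurosphere SP array 2 or 3 or the arrays that stand apart (-0.95 to -1.42, adjusted p = 0.0516 to 0.110). With the mean of all probe sets or only the groups compared the call was lost as well (-0.70 to -1.35, adjusted p = 0.0872 to 0.121). Its -0.76 ± 0.40 and -1.07 ± 0.40 in the other comparisons did not pass (adjusted p = 0.183 and 0.0750). Unc5b did pass in 3447 non-SP without 3447 SP array 3 or the arrays that stand apart (-1.07, adjusted p = 0.0216 to 0.0361). With array weights, no trend of spread, the mean of all probe sets or unnormalized signals it passed as well (-0.98 to -1.25, adjusted p = 0.0321 to 0.0438). Unc5a was higher in 4346 SP by 1.54 ± 0.47 (adjusted p = 0.0251), a call lost without 4346 SP array 1 or 3, neurosphere SP array 3 or the arrays that stand apart (1.11 to 1.54, adjusted p = 0.0540 to 0.125). With unnormalized signals or only the groups compared the call was lost as well (1.35 to 1.54, adjusted p = 0.0679 to 0.0790). Dcc, the attractive receptor, had 958, 1046 and 1338 in 3447 SP, 634, 1458 and 260 in 4346 SP and 1755, 1720 and 980 in 3447 non-SP, against 918, 2088 and 1218 in neurosphere SP and 2492, 3411 and 1780 in neurosphere non-SP. Its groups of SP cells overlapped and no comparison passed (-0.28 ± 0.47, -1.07 ± 0.47 and -0.80 ± 0.47, adjusted p = 0.725, 0.111 and 0.271).

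Of the 3 netrins tested, Ntn1 and Ntn4 passed downward and Ntn5 upward, each in some of the comparisons. Ntn1, the secreted ligand of Dcc and Unc5 receptors, had 92.4, 92.3 and 145 in 3447 SP, 91.1, 76.2 and 112 in 4346 SP and 169, 135 and 73.2 in 3447 non-SP, against 160, 357 and 192 in neurosphere SP and 173, 259 and 255 in neurosphere non-SP. It fell by 1.12 ± 0.33 in 3447 SP and 1.06 ± 0.33 in 4346 SP (adjusted p = 0.0244 and 0.0275), and -0.77 ± 0.33 in 3447 non-SP did not pass (adjusted p = 0.117). Its call in 3447 SP was lost without 3447 SP array 1 or 2 or neurosphere SP array 2 (-0.81 to -1.13, adjusted p = 0.0550 to 0.117). With unnormalized signals, no filter on low signals, the mean of all probe sets or only the groups compared the call was lost as well (-0.43 to -1.12, adjusted p = 0.0527 to 0.381). Its call in 4346 SP was lost without 4346 SP array 1 or 2 or neurosphere SP array 2 (-0.75 to -1.06, adjusted p = 0.0584 to 0.135). With median centring of the arrays, no filter on low signals, the mean of all probe sets or only the groups compared the call was lost as well (-0.55 to -1.06, adjusted p = 0.0562 to 0.220). Ntn4, a netrin of basement membranes, had 297, 409 and 540 in 3447 SP, 360, 325 and 621 in 4346 SP and 114, 114 and 162 in 3447 non-SP, against 374, 528 and 628 in neurosphere SP and 425, 1095 and 769 in neurosphere non-SP. It fell by 2.32 ± 0.36 in 3447 non-SP (adjusted p = 2.20e-04), while -0.37 ± 0.36 in 3447 SP and -0.27 ± 0.36 in 4346 SP did not pass (adjusted p = 0.520 and 0.619). Ntn5 was higher by 1.40 ± 0.38 in 4346 SP (adjusted p = 0.0148), a call lost without neurosphere SP array 1 (1.16, adjusted p = 0.0679).

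Slit3 passed upward in all 3 comparisons of tumour with neurosphere, Slit2 in 4346 SP and 3447 non-SP, and Robo1 downward in both groups of line 3447. Slit3 had 166, 152 and 195 in 3447 SP, 174, 280 and 968 in 4346 SP and 48.4, 86.5 and 60.1 in 3447 non-SP, against 1.2, 1.01 and 2.12 in neurosphere SP and 1.4, 1.38 and 2.54 in neurosphere non-SP. The neurosphere values were at most 2.54, and the rise was 3.30 ± 0.44, 4.48 ± 0.44 and 2.25 ± 0.44 on the scale with 16 added (adjusted p = 6.25e-05, 2.81e-06 and 0.00178). The 3447 non-SP call was lost with an added constant of 64 (1.02, adjusted p = 0.0539). Slit2 had 946, 596 and 964 in 3447 SP, 4236, 8006 and 4810 in 4346 SP and 3364, 1531 and 1407 in 3447 non-SP, against 118, 382 and 56.1 in neurosphere SP and 139, 523 and 3.38 in neurosphere non-SP. All tumour arrays were above all neurosphere arrays, and it rose by 5.09 ± 0.85 in 4346 SP, a 34.1-fold change, and by 4.02 ± 0.85 in 3447 non-SP (adjusted p = 4.07e-04 and 0.00300). In 3447 SP its 2.38 ± 0.85 did not pass (adjusted p = 0.0607), although it did without neurosphere SP array 2 or neurosphere non-SP array 2 or 3 (2.38 to 3.06, adjusted p = 0.00706 to 0.0287). With the replicate block as a random effect, array weights, only the groups compared, an added constant of 64 or median centring of the arrays it passed as well (2.01 to 2.44, adjusted p = 0.0148 to 0.0414). A further Slit2 probe set above the filter rose by less, at 1.57 in 3447 SP, 1.22 in 4346 SP and 1.52 in 3447 non-SP. Another, below the filter, gave 0.18, 1.49 and -0.06. Slit1 had 29.3, 30.5 and 16.1 in 3447 SP, 44.9, 28.9 and 60.6 in 4346 SP and 8.13, 23.1 and 30.2 in 3447 non-SP, against 31.7, 47.9 and 29.1 in neurosphere SP and 35.4, 72.7 and 33.3 in neurosphere non-SP, with overlapping groups and no call (-0.45 ± 0.41, 0.44 ± 0.41 and -0.63 ± 0.41, adjusted p = 0.491, 0.469 and 0.321). Its probe set with the highest mean deposited signal, also above the filter, gave -0.81, 0.29 and -1.03, and -1.10 between the lines.

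Robo1, the Slit receptor, had 161, 72.7 and 47.4 in 3447 SP, 1173, 1884 and 916 in 4346 SP and 0.541, 65.2 and 31.7 in 3447 non-SP, against 1819, 3715 and 7196 in neurosphere SP and 2163, 4451 and 8025 in neurosphere non-SP. The 6 arrays of line 3447 were at 161 or below and the 6 neurosphere arrays at 1819 or above. It fell by 5.42 ± 0.64 in 3447 SP and by 6.68 ± 0.64 in 3447 non-SP (adjusted p = 1.82e-05 and 1.76e-06), a change of 42.9-fold and 103-fold. In 4346 SP the values overlapped those of neurosphere SP, and -1.51 ± 0.64 did not pass (adjusted p = 0.0973), although it did with the mean of all probe sets or an added constant of 64 (-1.03 to -1.48, adjusted p = 0.0228 to 0.0412). The other Robo1 probe sets had low signals and moved less, by -0.68 and -0.84 in 3447 SP and by -0.35 and -0.95 in 3447 non-SP. Robo2 had 13.3, 1.07 and 91.1 in 3447 SP, 6.61, 10.1 and 1.78 in 4346 SP and 0.191, 15.8 and 1.36 in 3447 non-SP, against 31.1, 22 and 59.6 in neurosphere SP and 27, 98.6 and 24.8 in neurosphere non-SP, and did not pass (-0.67 ± 0.53, -1.05 ± 0.53 and -1.49 ± 0.53, adjusted p = 0.424, 0.162 and 0.0604). Robo2 did pass in 3447 non-SP without 3447 SP array 2 or 3 or the arrays that stand apart (-1.49, adjusted p = 0.0236 to 0.0478). With array weights, no trend of spread, the mean of all probe sets or no filter on low signals it passed as well (-1.49 to -1.51, adjusted p = 0.0286 to 0.0492).

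Set against each other, the side populations of the tumour lines differed in 1 of 54 members, Robo1, which is 1.85%, against 1.66% of all genes. Robo1 was lower in 3447 SP than in 4346 SP by 3.91 ± 0.64 on the log2 scale, a 15-fold difference, with 161, 72.7 and 47.4 in 3447 SP, against 1173, 1884 and 916 in 4346 SP (adjusted p = 0.00390). The groups were apart, but the call did not hold with an added constant of 1 (-4.25, adjusted p = 0.0537) or without the 2 arrays that stand apart (-3.58, adjusted p = 0.0541). With the mean over its 3 probe sets the difference was -1.29, and the other Robo1 probe sets, with low signals, gave -0.09 and 0.14. Gja1, an astrocyte marker, was also lower in 3447 SP than in 4346 SP, at -3.90 ± 0.75 (adjusted p = 0.0132). The other astrocyte markers, Gfap, Aqp4, Aldh1l1 and Slc1a2, were at 0.13 to 0.77 and did not pass. The part of these markers in the Robo1 difference was not tested.

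Further differences between the lines did not pass. Slit2 was at 946, 596 and 964 in 3447 SP, against 4236, 8006 and 4810 in 4346 SP, which did not overlap (-2.71 ± 0.85, adjusted p = 0.129). A further Slit2 probe set above the filter gave the opposite sign between the lines, 0.35, and another below the filter gave -1.31. Plxnb2 and Sema4a gave -1.26 ± 0.32 and -2.12 ± 0.53 (adjusted p = 0.0627 and 0.0591). Slit2 did pass without neurosphere non-SP array 3 (-2.71, adjusted p = 0.0214). With only the groups compared, an added constant of 64 or median centring of the arrays it passed as well (-2.64 to -3.11, adjusted p = 0.00182 to 0.0348). Plxnb2 passed without 4346 SP array 2 (-1.52, adjusted p = 0.0305). With median centring of the arrays it passed as well (-1.60, adjusted p = 0.0134). Sema4a passed without 3447 non-SP array 3 (-2.12, adjusted p = 0.0466). With the mean of all probe sets, an added constant of 64 or median centring of the arrays it passed as well (-1.15 to -2.29, adjusted p = 0.0156 to 0.0403). The arrays of 12 of 54 members did not overlap between the lines, and over all genes that held for 2332 of 11893 (19.6%). The 11 members called higher in 4346 SP and not in 3447 SP had differences between the lines of -0.06 to -2.71, and none of these passed (adjusted p = 0.0591 to 0.971). The median difference of members was -0.21, against -0.04 over all genes.

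**Figure D4:**
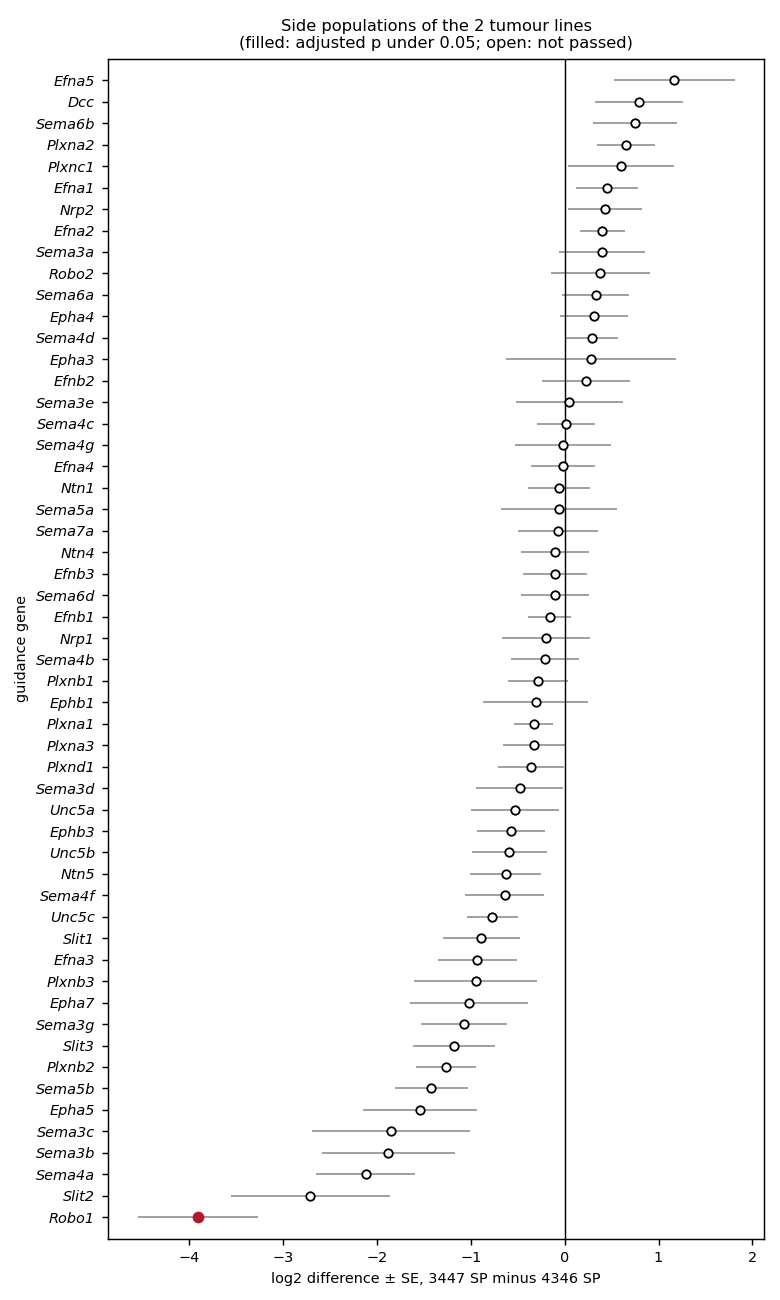
Log2 differences with standard errors between 3447 SP and 4346 SP for the 54 tested guidance genes, sorted, with the filled point for adjusted p under 0.05. Robo1 at -3.91 is the filled point and Slit2 at -2.71 lies next to it, open.

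In limma without a replicate block, the sort separated no guidance gene at the threshold. In line 3447, 0 of 54 members passed between SP and non-SP, against 0.00841% of all genes. An unadjusted p under 0.05 was seen for 7 of 54 members, against 858 of 11893 genes (7.21%). In neurospheres 0 passed, against 0.0168% of all genes, and 1 of 54 had an unadjusted p under 0.05, against 428 of 11893 genes (3.60%). For the difference of the SP effect between line 3447 and neurospheres 0 passed, against 0% of all genes. There 1 of 54 was at an unadjusted p under 0.05, against 266 of 11893 genes (2.24%). For the mean of both SP effects 0 passed, against 0.168% of all genes, with 7 of 54 at an unadjusted p under 0.05, against 1043 of 11893 genes (8.77%). With the mouse as a block in the neurospheres, whose numbers pair the samples, 1 member passed for that mean, Unc5c (adjusted p = 0.0320). Without the arrays that stand apart these 4 counts stayed at 0.

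Among the smallest p-values in line 3447 was that of Ntn4, at 297, 409 and 540 in SP, against 114, 114 and 162 in non-SP cells. The groups were apart (1.48 ± 0.36, adjusted p = 0.225). Efnb1, a ligand of EphB receptors, was at 731, 640 and 674 in 3447 SP, against 444, 323 and 339 in 3447 non-SP (0.86 ± 0.23, adjusted p = 0.305), and did not pass against neurospheres either (0.47 ± 0.23, 0.64 ± 0.23 and 0.05 ± 0.23, adjusted p = 0.177, 0.0590 and 0.911). Its 4346 SP values were 654, 870 and 739, and it did pass there with no trend of spread, the mean of all probe sets or unnormalized signals (0.64 to 0.85, adjusted p = 0.0157 to 0.0381). Nrp2, Epha4 and Nrp1 gave -0.99 ± 0.39, 0.89 ± 0.36 and 1.08 ± 0.47 (adjusted p = 0.629, 0.645 and 0.665), and only the Nrp1 arrays did not overlap.

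In neurospheres Unc5c was at 63.1, 83.3 and 44.8 in SP, against 157, 183 and 83.1 in non-SP cells, so it was lower in the SP cells of each mouse (-0.95 ± 0.27, adjusted p = 0.803). Efnb1 was at 448, 408 and 543 in SP, against 422, 301 and 348 in non-SP cells (0.44 ± 0.23). Efna2, an A-type ephrin, was at 1066, 1504 and 1922 in SP, against 1688, 2624 and 1986 in non-SP cells (-0.48 ± 0.24). Plxnc1, the receptor of Sema7a, was at 162, 586 and 169 in SP, against 440, 1247 and 353 in non-SP cells (-1.11 ± 0.56). Dcc gave -0.88 ± 0.47. Each of these 4 had an adjusted p of 1.00, and their groups overlapped.

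Across both origins the mean SP effect on Unc5c was -0.74 ± 0.19 (adjusted p = 0.162). It passed with the mouse as a block in the neurospheres, at -0.74 with an adjusted p of 0.0320. Efnb1, Sema4b, Nrp2 and Efna2 gave 0.65 ± 0.17, 0.67 ± 0.25, -0.70 ± 0.27 and -0.42 ± 0.17 (adjusted p = 0.162, 0.454, 0.465 and 0.469). The SP effect on Ntn4 was 1.95 ± 0.50 higher in line 3447 than in neurospheres, and Nrp1, Slit3, Robo1 and Slit2 gave 1.20 ± 0.66, 1.05 ± 0.63, 1.26 ± 0.90 and -1.65 ± 1.20, each with an adjusted p of 0.999.

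**Figure D5:**
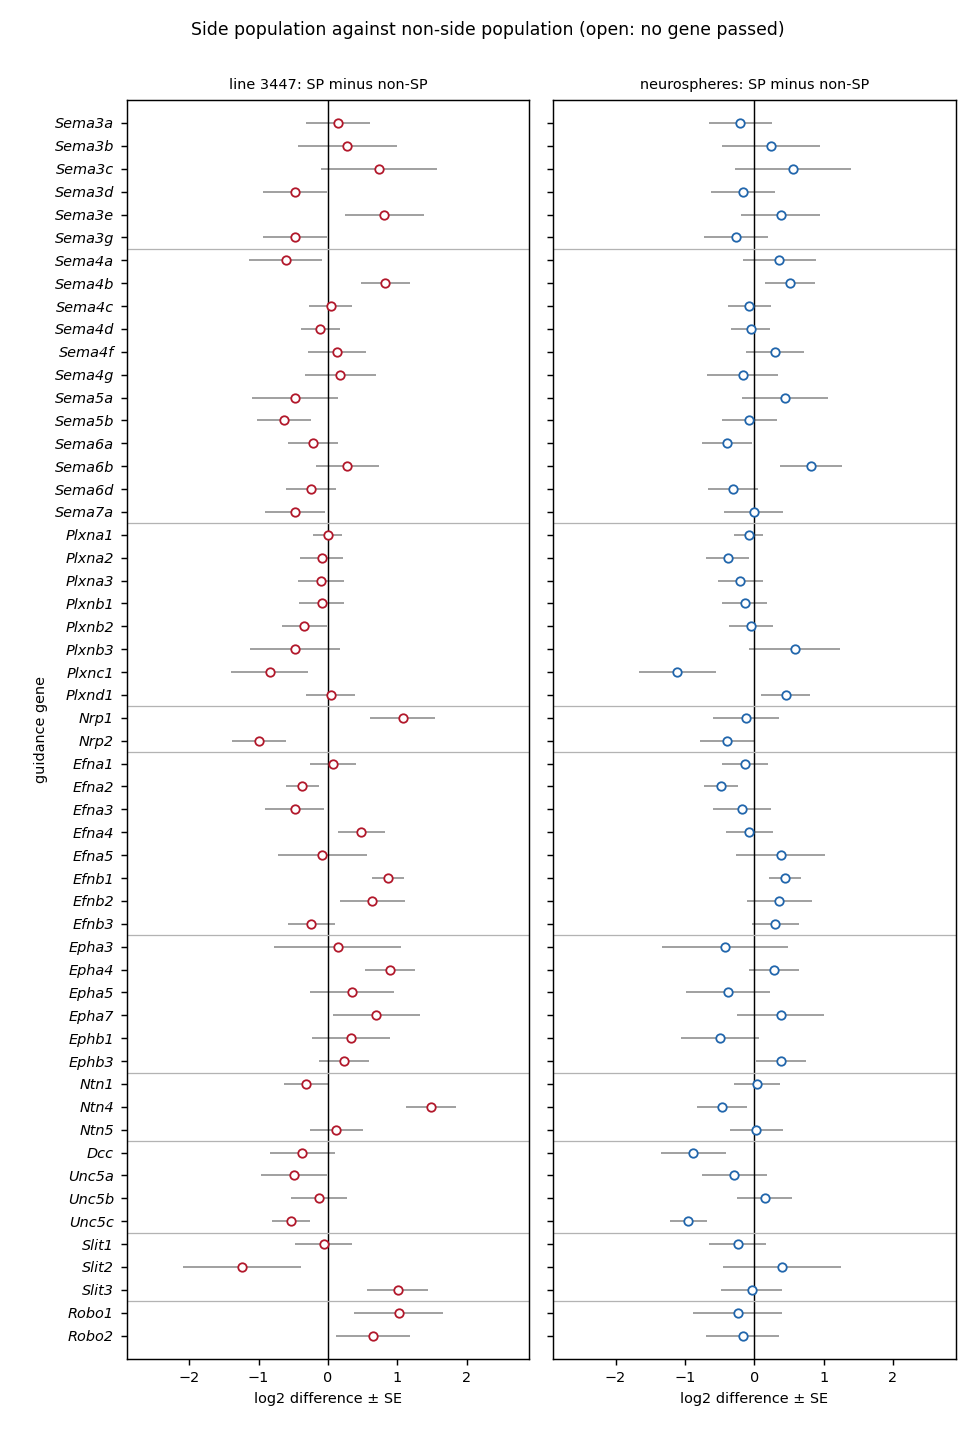
Log2 differences with standard errors between SP and non-SP cells for the 54 tested guidance genes, in line 3447 and in neurospheres, all open because none passed. Ntn4 in line 3447 lies highest at 1.48 and Plxnc1 in neurospheres lowest in its panel at -1.11.

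The wider pathway changed in both directions as well. Of 22 further cues and coreceptors, 18 were tested, with 3 higher and 4 lower in 3447 SP, 6 and 4 in 4346 SP, and 2 and 3 in 3447 non-SP, or 38.9%, 55.6% and 27.8% called. Of 53 listed intracellular effectors, 48 were tested, with 13 higher and 7 lower in 3447 SP, 12 and 10 in 4346 SP, and 11 and 7 in 3447 non-SP, or 41.7%, 45.8% and 37.5% called. Over all genes the shares called in these comparisons were 19.6%, 24.3% and 19.4%. Their median log2 fold changes ran from -0.10 to -0.05 for effectors and from 0.15 to 0.40 for further cues over these comparisons. No gene of either list passed between SP and non-SP in line 3447 or in neurospheres, and Cxcr4, the chemokine receptor, passed for the mean of both SP effects (0.82 ± 0.16, adjusted p = 0.0487).

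Mical2, Ablim3 and Arhgap39 were among the 4 effectors with the smallest p-values in both comparisons with neurosphere SP. Mical2, an actin-oxidizing enzyme of the family that acts below plexins, averaged 56.8 ± 44.6 in 3447 SP, 63.6 ± 17.7 in 4346 SP and 15.9 ± 11.3 in 3447 non-SP, against 894 ± 126 in neurosphere SP and 704 ± 174 in neurosphere non-SP (SD, n = 3 each). It fell by 4.10 ± 0.39, 3.43 ± 0.39 and 4.41 ± 0.39 (adjusted p = 2.08e-06, 1.27e-05 and 7.87e-07). Ablim3, an actin-binding LIM protein, rose by 3.94 ± 0.50, 4.27 ± 0.50 and 2.72 ± 0.50, and Arhgap39, whose fly relative binds Robo, rose by 1.18 ± 0.14, 1.22 ± 0.14 and 1.11 ± 0.14 (adjusted p = 0.00101 or less for each). Between the lines, Chl1 and Dpysl3, named after their values were seen, were higher in 3447 SP than in 4346 SP by 1.96 ± 0.47 and 0.82 ± 0.19 (adjusted p = 0.0491 and 0.0374).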

How the data were processed

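Total RNA of FACS-sorted cells was amplified with the NuGEN Ovation Pico kit, labelled with biotin and hybridised to Affymetrix mouse arrays, per the labels' protocols. The deposited values are intensities on a linear scale, MAS5 signals made in Affymetrix Expression Console, per the submitters' processing notes, which name no version. Each array had a mean of 500 after trimming 2% of probe sets at either end, and the array medians differed by up to 2.23 times. The files hold no detection calls.

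Signals were quantile-normalized and turned into log2(signal + 16). Of 45101 probe sets, 34945 carried 1 gene symbol in the platform annotation, and those with several or none were not used. Each gene was read from its probe set with the highest mean log2 value, and tested where that probe set lay above the median of its own array in at least 3 arrays. All 68 members matched RefSeq (GRCm38.p6) by Entrez identifier, with 0 symbols changed. limma 3.58.1 in R 4.3.3 fitted 5 group means to the 15 arrays with 10 residual degrees of freedom and a trend of spread on level, tested 8 comparisons two-sided, and adjusted p-values over 11893 genes at 0.05. The fit was tested on simulated data. The number of arrays limits the precision.

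Members named with all their values were the 10 highest and 10 lowest that passed with no overlap of arrays in each comparison of tumour SP with neurosphere SP, 6 and 6 in those of 3447 non-SP and of the lines, the 5 smallest p-values in each comparison of the sort, and a list of well-studied members. For the effectors it was those with the smallest p-values, of which 1 is not reported here. The members and all lists were chosen with earlier results of these data known. Among other probe sets of called members, none above the filter moved the opposite way in the 4 comparisons of tumour cells.

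Groups and replicate numbers came from the sample titles. Deviations of same-numbered SP and non-SP samples from their group means correlated at 0.578, 0.523 and 0.622 in neurospheres, where each pair is a donor mouse, and at -0.224, -0.248 and -0.12 in line 3447. The numbers were therefore taken to pair the neurosphere samples and not those of line 3447. In line 3447, SP samples 1, 2 and 3 correlated with non-SP samples 2, 3 and 1 at 0.365, 0.297 and 0.219. Whether these are pairs is not known, and no fit used them. The block in both origins and the block as a random effect still joined line 3447 samples by number. Alternatives changed the scaling, the added constant, the filter, the choice of probe set, the samples in the fit, the trend, array weights and the replicate block, and left out single arrays. The choice of probe set by the highest mean deposited signal was added after seeing the data.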

Additional observations from a re-analysis of the deposited data

Results flagged for a closer look

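Robo1 differed between the side populations of the tumour lines by a test of the difference itself, at -3.91 ± 0.64 on the log2 scale for 3447 SP minus 4346 SP (adjusted p = 0.00390 in limma). Its effect relative to neurosphere SP was -5.42 ± 0.64 in line 3447 and -1.51 ± 0.64 in line 4346. The other Robo1 probe sets, with low signals, gave -0.09 and 0.14 between the lines. The call was lost with an added constant of 1 and without the 2 arrays that stand apart. All 3 arrays of 3447 SP were below all 3 of 4346 SP, 3 injected mice stand behind each group, and each line is 1 tumour, so line and tumour cannot be told apart.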

How the results depend on the processing

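The counts of called members stayed within 1.5 times of the reported value under every alternative for 3447 SP and 3447 non-SP over neurospheres, and in 4346 SP with 1 exception, the fit of only the groups compared, which called 18 (13 higher, 5 lower) in place of 28. Leaving out single arrays gave 14 to 21 members in 3447 SP, 21 to 29 in 4346 SP, 18 to 24 in 3447 non-SP and 1 to 3 between the lines, and 0 in the comparisons of the sort. Of the 18, 28 and 22 calls, 10, 14 and 14 passed under all alternatives. The shares of all genes called under the alternatives are not given here. Between the lines the count of 1 became 5 with arrays centred on their medians, 3 with a constant of 64, 2 with the mean of all probe sets, with only the groups compared or with array weights, and 0 with a constant of 1 or without the 2 arrays that stand apart. Centring moved the median of all genes between the lines to -0.38, and in 3447 SP, 4346 SP and 3447 non-SP over neurospheres to -0.18, 0.19 and 0.18. Without 3447 non-SP array 3, 4346 SP array 2 or neurosphere non-SP array 3 the lines differed in 2, 3 and 2 members. Signs turned for genes that did not pass: Plxna1 in 3447 SP with centring (-0.10), Dcc in 3447 SP without neurosphere SP array 2 (0.03, with leave-outs from -0.54 to 0.03), Plxna1 in 3447 non-SP with centring (0.12), with the mean of all probe sets (0.04) and without 3447 non-SP array 1 (0.10) or neurosphere non-SP array 2 (0.02), and Efnb1 without either of those arrays (-0.10 each). The causes were not tested. A replicate block as a random effect gave 19, 27, 23 and 1 calls in the comparisons of tumour cells, with Slit2 gained in 3447 SP, Sema5a lost in 4346 SP, Sema3c gained in 3447 non-SP (-2.43, adjusted p = 0.0457) and no other member changed, and a block in both origins gave 0 in those of the sort. The block in neurospheres only gave 1 call, Unc5c, for the mean SP effect, and 0 in the others.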

Other observations

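Some members varied widely among the neurosphere mice, and their SP and non-SP values varied together. With SP values before non-SP values, Robo1 was at 1819 and 2163 in mouse 1, at 3715 and 4451 in mouse 2, and at 7196 and 8025 in mouse 3. Epha5 was at 966 and 1191 in mouse 2, against 317 to 521 in the other mice. Efna5 was at 148 and 160 in mouse 2, against 6.8 to 27.1 in the others, and Slit2 at 382 and 523, against 3.38 to 139. These values are a description of 3 mice with no test.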
